A study of Homo sapiens with 12 samples.

Results

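The CIP/KIP and INK4 families are the inhibitors of the cyclin-dependent kinases (CDKs), the enzymes that move a cell through its division cycle. The CIP/KIP family has 3 genes, CDKN1A, CDKN1B and CDKN1C, and the INK4 family has 4, CDKN2A, CDKN2B, CDKN2C and CDKN2D. They were taken by gene symbol from both deposited RNA-seq tables, which list 20652 genes in all. All 7 genes have a row in the selinexor table, and 6 were read in both tables, since CDKN2B was read in the selinexor table only. All RNA was from IMR5 cells, a MYCN-amplified neuroblastoma line established from a human tumour. Cells were treated for 24 h with 100 nM selinexor, which blocks XPO1, a receptor that carries proteins out of the nucleus, or with DMSO for a time the labels do not give. Other cells were nucleofected with siRNA number 10 against XPO1 or with control siRNA and harvested at 72 h. Each of the 4 groups has 3 libraries. All groups are the same cell line, the knockdown rests on the sequence of a single siRNA, and the labels do not say whether replicates were separate cultures. The p-values therefore cover the spread between libraries, which may be technical.

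CIP/KIP proteins bind cyclin-CDK complexes, chiefly those of CDK2, and can also help cyclin D assemble with its kinases. INK4 proteins bind CDK4 and CDK6 alone and keep cyclin D away from them. Less kinase activity leaves the RB protein unphosphorylated, and RB then holds back the E2F factors that drive DNA replication genes. CDKN1A is the best known transcriptional target of p53, whose protein is a cargo of XPO1, and p27, the product of CDKN1B, is also carried out of the nucleus and is controlled largely by its degradation.

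Depth was estimated at 26.9 to 33.8 M reads per selinexor library, 39.5 to 40.9 M per DMSO library, 33.5 to 55.8 M per XPO1 siRNA library and 40.6 to 54.0 M per control siRNA library. XPO1 itself averaged 4344 ± 74.0 normalized counts with XPO1 siRNA and 18809 ± 210 with control siRNA (SD, n = 3 each), a 4.33-fold fall. In the selinexor libraries XPO1 read 15544, 22513 and 21165, against 18380 ± 507 with DMSO (limma adjusted p = 0.623). Selinexor replicate 1 stood apart from the other selinexor libraries (log2 correlation 0.974 and 0.977, against 0.991 between replicates 2 and 3). The signal recognition particle RNA genes RN7SL1 and RN7SL2 made up 12.61% to 15.96% of counts in selinexor libraries and 9.40% to 9.72% in DMSO libraries, and 10.8% to 12.4% with XPO1 siRNA and 12.6% to 13.1% with control siRNA. The neuroblastoma factor HAND2 was abundant, at 17580 ± 1371 in selinexor cells and 12098 ± 414 in DMSO cells. It was at 18925 ± 538 with XPO1 siRNA and 15755 ± 65.8 with control siRNA. TH, the catecholamine enzyme, averaged 5.50 ± 3.81 with XPO1 siRNA and 5.41 ± 2.15 with control siRNA, and had no row in the selinexor table. Of 10 neuroblastoma markers listed, 9 were tested in each comparison, by the threshold given below. With selinexor 7 rose (22.9% of all tested genes) and with XPO1 siRNA 6 (25.9%), and 0 fell in either. Of 16 markers of blood, endothelial, stromal, glial and epithelial cells, 9 had a row in each table. Their summed level ran from 850 to 1874 with selinexor, 831 to 935 with DMSO, 1102 to 1124 with XPO1 siRNA and 1146 to 1398 with control siRNA, mostly from the collagen gene COL1A1. Each inhibitor is also given below without that library. The part of RN7SL and of other cells in the results was not tested.

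The bases before the transcription start of 3 inhibitor genes are shown because these genes carry the contrasting patterns described below: CDKN1A was higher in both comparisons, CDKN1B went in opposite directions, and CDKN2D was lower in both. Each line holds the 250 bases upstream of the start in RefSeq, build GRCh38.p14, read 5′ to 3′ on the strand of the gene, at chr6:36678464-36678713 (plus strand), chr12:12717118-12717367 (plus strand) and chr19:10568980-10569229 (minus strand). Capitals mark GC boxes, the letters GGGCGG on either strand, to which Sp1-family factors are known to bind.
CDKN1A: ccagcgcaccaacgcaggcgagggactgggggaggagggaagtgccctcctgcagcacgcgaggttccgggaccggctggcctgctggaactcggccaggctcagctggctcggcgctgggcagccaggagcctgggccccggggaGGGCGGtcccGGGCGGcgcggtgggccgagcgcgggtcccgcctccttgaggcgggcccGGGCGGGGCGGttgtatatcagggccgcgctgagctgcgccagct
CDKN1B: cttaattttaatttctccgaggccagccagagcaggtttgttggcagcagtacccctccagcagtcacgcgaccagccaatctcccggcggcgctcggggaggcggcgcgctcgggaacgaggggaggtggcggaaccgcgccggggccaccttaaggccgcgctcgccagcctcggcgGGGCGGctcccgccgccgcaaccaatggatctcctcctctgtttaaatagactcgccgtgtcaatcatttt
CDKN2D: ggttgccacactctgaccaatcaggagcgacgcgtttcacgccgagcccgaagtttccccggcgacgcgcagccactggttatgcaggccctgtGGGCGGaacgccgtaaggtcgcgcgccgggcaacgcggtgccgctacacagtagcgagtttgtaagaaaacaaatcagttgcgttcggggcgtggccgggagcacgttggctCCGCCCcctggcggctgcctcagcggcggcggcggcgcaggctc

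RefSeq promoter entries were found for 6 of the 7 genes, all but CDKN1C. CDKN1A held 4 GC boxes in its window, a pair of them overlapping, CDKN1B held 1 and CDKN2D held 2. A GC box was present in 42.6% of 35116 such windows of all genes, so its presence is common. G and C made up 76.4% of the CDKN1A window, 64.4% of the CDKN1B window and 67.6% of the CDKN2D window. A CCAAT box (CCAAT on either strand) occurred at 2 places in CDKN1B and 1 in CDKN2D, and in 32.0% of all windows. The E2F letters TTTCCCGC or TTTGGCGC on either strand, found in 1.93% of all windows, and the p53 half-site, found in 5.57%, were not among the letters of any of these 3 windows. The matches describe letters only, and sites outside these 250 bases, for p53 or other factors, were not searched.

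Values below are the authors' normalized counts per library, and log2 fold changes are on log2(value + 1), which understates changes of low genes. A gene was called at a Benjamini-Hochberg adjusted p under 0.05 in limma, over all genes whose mean was 10 or more in the table. Of the 7 inhibitors, 6 reached that mean in the selinexor table, and all 6 with a row did so in the knockdown table. With selinexor, 2 of the 6 tested rose, 3 fell and 1 did not pass, where 49.2% of all 18128 genes tested were called (22.9% higher, 26.3% lower). With XPO1 siRNA, 2 rose, 2 fell and 2 did not pass, where 54.5% of 17616 genes were called (25.9% higher, 28.6% lower). Of these calls 47.5% were higher, and 62.4% with libraries rescaled to equal totals. The difference of the effects, selinexor minus siRNA, passed for 4 of the 6, with 2 higher and 2 lower, where 31.8% of 17332 genes were called (11.6% higher, 20.2% lower). For 5 of the 6 inhibitors all selinexor libraries lay on the same side of all DMSO libraries, 2 higher and 3 lower, beside 61.7% of all genes (28.8% higher, 32.9% lower). The same held for 4 of the 6 with XPO1 siRNA against control siRNA, 2 higher and 2 lower, beside 60.4% (29.2% higher, 31.2% lower). The medians of the tested inhibitors were -0.33 with selinexor and -0.09 with XPO1 siRNA on the log2 scale, beside -0.01 and 0.0024 over all tested genes. In whole cultures, a change in the share of cells that express a gene and a change in RNA per cell cannot be told apart.

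**Figure D1:**
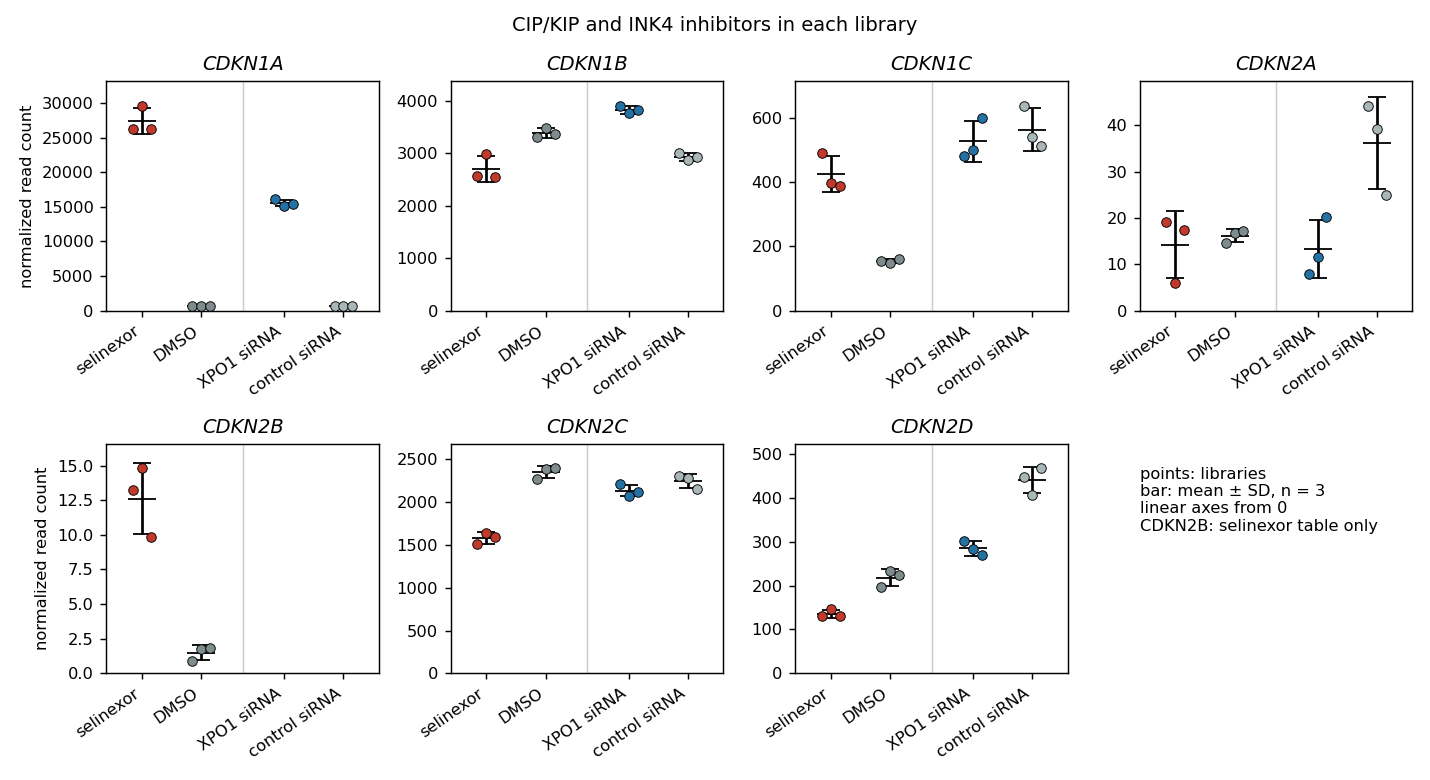
Normalized read count (vertical axes, linear from 0) of each inhibitor in every library of the 4 groups, with mean ± SD (n = 3), and of CDKN2B in the selinexor and DMSO libraries only. CDKN1A lies between 26245 and 29602 with selinexor, against 611 to 672 with DMSO, and between 15137 and 16062 with XPO1 siRNA, against 671 to 721 with control siRNA.

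CDKN1A encodes p21, which binds cyclin-CDK2 complexes and the replication clamp PCNA (hg19 chr6:36644305-36655117, plus strand, protein coding). It read 26245, 29602 and 26274 in the selinexor libraries and 611, 672 and 617 in the DMSO libraries. In the XPO1 siRNA libraries it read 16062, 15137 and 15456, against 721, 671 and 673 with control siRNA. Every treated library lay far above every control library of its table. The rise was 43.1-fold with selinexor (log2 fold change 5.43, SE 0.0855, limma adjusted p = 2.53e-08). With XPO1 siRNA it was 22.6-fold (4.50, SE 0.0407, limma adjusted p = 9.47e-17). By log2 fold change CDKN1A ranked 14 from the top of 18128 genes with selinexor and 7 of 17616 with XPO1 siRNA. The selinexor effect exceeded the siRNA effect by 0.93 on the log2 scale (95% interval 0.74 to 1.13, limma adjusted p = 9.34e-06), a test on all 12 libraries in which each effect was formed within its own table. That comparison also differs in time (24 h and 72 h) and in delivery, which cannot be told apart from the agent.

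CDKN1B encodes p27, an inhibitor of cyclin E and cyclin A complexes with CDK2 (hg19 chr12:12867992-12875306, plus strand). Its libraries read 2567, 2983 and 2543 with selinexor and 3302, 3485 and 3365 with DMSO. In the other table they read 3909, 3763 and 3824 with XPO1 siRNA and 3007, 2865 and 2927 with control siRNA. The groups did not overlap in either table, and the directions were opposite: lower with selinexor, higher with XPO1 siRNA. The log2 fold change was -0.33 with selinexor (SE 0.0886, limma adjusted p = 0.0147) and 0.39 with XPO1 siRNA (SE 0.0362, limma adjusted p = 1.02e-06). The difference of the effects was -0.72 (95% interval -0.91 to -0.52, limma adjusted p = 8.30e-05). The fall with selinexor lost its call without DMSO replicate 2 (limma adjusted p = 0.0730) or DMSO replicate 3 (0.0613), over a range of 0.00108 to 0.0730 across alternatives.

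CDKN1C encodes p57, the imprinted member of the family, expressed mainly from the maternal copy in development (hg19 chr11:2904443-2907112, minus strand). It read 488, 397 and 387 with selinexor and 155, 148 and 162 with DMSO, so that each selinexor library held more than each DMSO library. With XPO1 siRNA it read 482, 498 and 598, against 637, 539 and 510 with control siRNA, and these groups overlapped. The gene rose 2.72-fold with selinexor (log2 fold change 1.44, SE 0.123, limma adjusted p = 4.29e-05). With XPO1 siRNA the log2 fold change was -0.10 (95% interval -0.30 to 0.11, limma adjusted p = 0.409). The effects differed by 1.54 (95% interval 1.18 to 1.89, limma adjusted p = 1.96e-05). The starting levels were also unlike: scaled to CPM over all normalized counts of a library, CDKN1C stood at 13.0 ± 1.63 CPM in control siRNA cells, 2.99 times its 4.35 ± 0.221 CPM in DMSO cells. These controls come from tables that were normalized separately, so that ratio has no test. On this scale the treated groups were at 12.6 ± 2.19 CPM with selinexor and 13.0 ± 1.76 CPM with XPO1 siRNA.

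**Figure D2:**
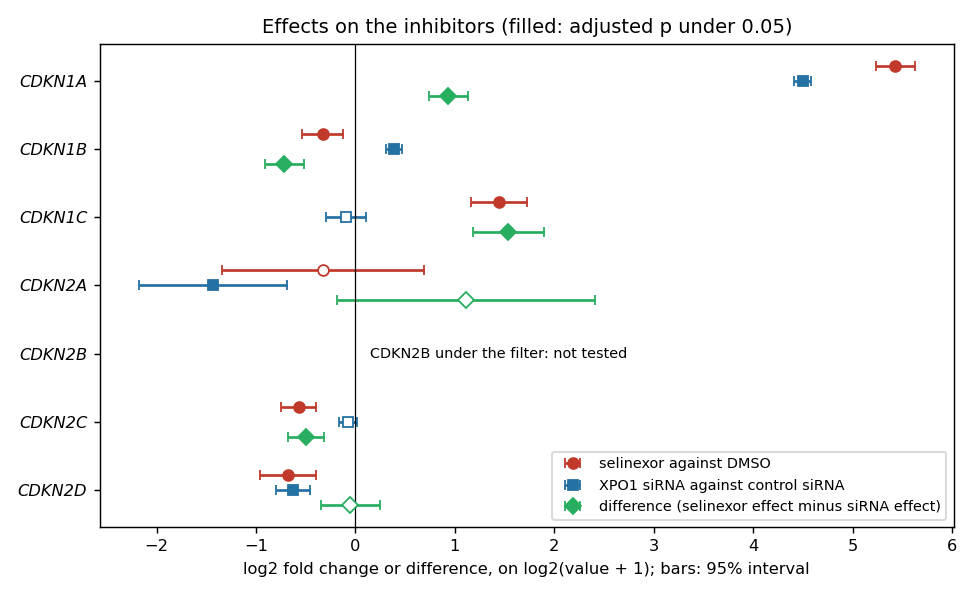
Log2 fold change (horizontal axis, with 95% intervals from limma) of each tested inhibitor with selinexor (circles) and XPO1 siRNA (squares), and the selinexor effect minus the siRNA effect (diamonds), with filled symbols where the adjusted p was under 0.05. CDKN1A lies at 5.43 and 4.50, CDKN1B on opposite sides of 0, and the CDKN2D effects at -0.68 and -0.63.

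CDKN2D encodes p19, an INK4 protein of CDK4 and CDK6 that is known to vary with the cell cycle (hg19 chr19:10677138-10679736, minus strand). Libraries held 131, 146 and 131 counts with selinexor and 196, 234 and 225 with DMSO. They held 303, 284 and 269 with XPO1 siRNA and 447, 408 and 467 with control siRNA. All treated libraries were below all controls of their table. The log2 fold change was -0.68 with selinexor (SE 0.123, limma adjusted p = 0.00234) and -0.63 with XPO1 siRNA (SE 0.0791, limma adjusted p = 1.65e-05). The difference between the effects was -0.05, with a 95% interval of -0.35 to 0.25 (limma adjusted p = 0.806). Here too the controls were unlike, at 10.2 ± 0.668 CPM with control siRNA and 6.13 ± 0.468 CPM with DMSO. Their ratio of 1.67 has no test.

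CDKN2C encodes p18, which likewise binds CDK4 and CDK6 (hg19 chr1:51426417-51440306, plus strand). It read 1507, 1641 and 1598 with selinexor and 2267, 2387 and 2397 with DMSO, without overlap. With XPO1 siRNA it read 2208, 2078 and 2119, against 2304, 2288 and 2156 with control siRNA, where the groups overlapped. The fall with selinexor was 1.49-fold (log2 fold change -0.57, SE 0.0785, limma adjusted p = 0.000559). With XPO1 siRNA the log2 fold change was -0.07 (95% interval -0.17 to 0.02, limma adjusted p = 0.153), and the sign turned with libraries rescaled to equal totals. The effects differed by -0.50 (95% interval -0.67 to -0.32, limma adjusted p = 0.000612). CDKN2C stood at 52.1 ± 2.25 CPM with control siRNA and 66.0 ± 1.26 CPM with DMSO, a ratio of 0.790 without a test.

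CDKN2A encodes p16, an INK4 protein, and from another first exon and reading frame ARF, which binds the p53 ligase MDM2 (hg19 chr9:21967751-21995301, minus strand). Counts per gene do not separate these products. The gene was near the lower limit of the assay, at 19.2, 5.92 and 17.5 with selinexor and 14.6, 16.8 and 17.2 with DMSO. In the knockdown table it read 7.97, 11.6 and 20.2 with XPO1 siRNA and 44.2, 39.3 and 25.0 with control siRNA, without overlap. The sums were about 42 reads over the XPO1 siRNA libraries and 110 over the control siRNA libraries, a ratio of 0.358 (exact 95% interval 0.244 to 0.515, counting error only). The gene fell with XPO1 siRNA (log2 fold change -1.43, SE 0.346, limma adjusted p = 0.00319). With selinexor the log2 fold change was -0.32 (95% interval -1.34 to 0.69, limma adjusted p = 0.571), turning to 0.17 without selinexor replicate 2. The difference of the effects, 1.11 (95% interval -0.19 to 2.41), did not pass (limma adjusted p = 0.176), but did without that library (1.60, adjusted p = 0.0230). CDKN2A stood at 0.839 ± 0.237 CPM with control siRNA and 0.454 ± 0.0332 CPM with DMSO, a ratio of 1.85 without a test.

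CDKN2B encodes p15, an INK4 protein known as a target of TGF-beta signalling, from the gene beside CDKN2A (hg19 chr9:22002902-22009363, minus strand). Its values were 13.2, 14.8 and 9.82 with selinexor and 0.860, 1.76 and 1.81 with DMSO. These correspond to about 34 reads over the selinexor libraries and 5 over the DMSO libraries, a ratio of 8.59 (exact 95% interval 3.34 to 28.1, counting error only). The groups did not overlap, and the exact two-sided permutation p was 0.1, the smallest that 3 against 3 libraries can give. Its mean was under the filter, so it was not among the genes tested, and its values stand as a description. With no filter on low values its log2 fold change of 2.46 had a limma adjusted p of 0.00404. Without a test, it was 2.75 with a pseudocount of 0.5 and 1.44 with a pseudocount of 5.

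To compare levels between genes, counts were divided by exon length in GENCODE 29. On this scale CDKN1A made up 85.8% ± 0.219 of the summed level of the family in selinexor cells and 10.2% ± 0.303 in DMSO cells. It made up 70.8% ± 0.333 with XPO1 siRNA and 10.4% ± 0.0789 with control siRNA (SD, n = 3 each). CDKN1B led in both controls, at 51.7% ± 0.458 with DMSO and 41.7% ± 0.633 with control siRNA, followed by CDKN2C at 28.7% ± 0.425 and 25.6% ± 0.849. In selinexor cells CDKN1B held 7.97% ± 0.180 and CDKN2C 3.76% ± 0.175. With XPO1 siRNA they held 16.5% ± 0.124 and 7.35% ± 0.0434. In control siRNA cells CDKN2D, CDKN1C and CDKN1A lay close together (11.1% ± 0.788, 10.9% ± 0.925 and 10.4% ± 0.0789), and the CDKN1C libraries overlapped those of both others. The share of CDKN2A was highest in control siRNA cells, at 0.304% to 0.509%.

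The summed level per kb was 5.16 times higher in selinexor than in DMSO cells, at 12719 ± 869 and 2465 ± 76.3 normalized counts per kb. For XPO1 siRNA and control siRNA it was 8749 ± 233 and 2650 ± 89.1, a ratio of 3.30. Leaving CDKN1A out, the sum was 1809 with selinexor (range 1733 to 1924) and 2212 with DMSO (2141 to 2269), a ratio of 0.818. The same sum was 2550 ± 51.7 with XPO1 siRNA and 2376 ± 77.7 with control siRNA, a ratio of 1.07. The INK4 genes together were at 575 ± 23.4 with selinexor and 859 ± 35.1 with DMSO, and at 837 ± 27.7 with XPO1 siRNA and 983 ± 20.4 with control siRNA, with no overlap in either pair. CDKN2C was the largest part of each sum. Its siRNA groups overlapped, at 643 ± 19.9 per kb with XPO1 siRNA and 678 ± 24.4 with control siRNA. Those of CDKN2D, at 190 ± 11.2 and 293 ± 20.3, did not.

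**Figure D3:**
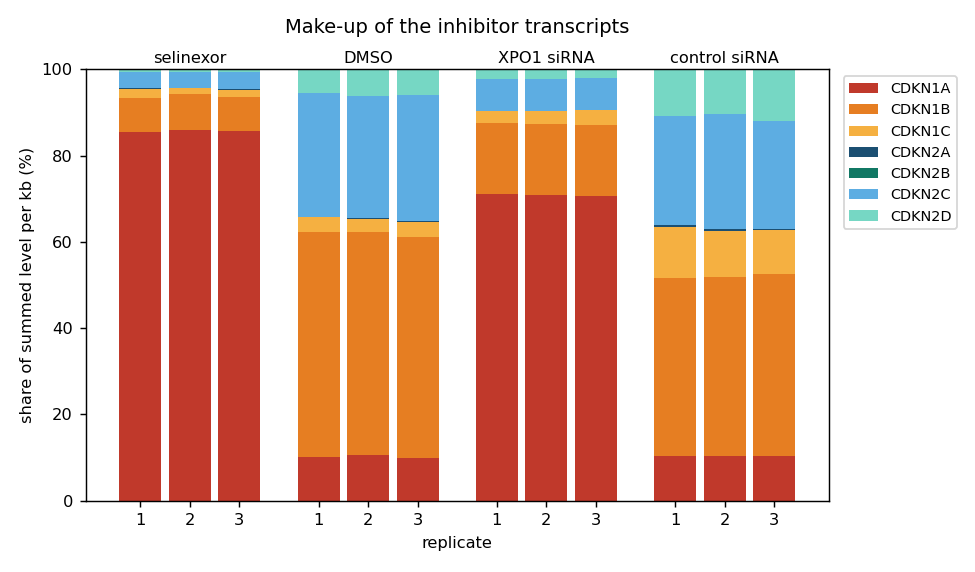
Share of each inhibitor in the summed level per kb (vertical axis, %) in each library, in blocks of 3 replicates per group. CDKN1A fills 85.8% on average with selinexor and 70.8% with XPO1 siRNA, against 10.2% with DMSO and 10.4% with control siRNA, where CDKN1B is the largest.

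Among the kinases and cyclins that the inhibitors act on, 1 of 15 tested rose and 10 fell with selinexor. With XPO1 siRNA, 2 rose and 10 fell. The medians of these 15 were -0.95 and -0.32. Of all tested genes, 22.9% were called higher and 26.3% lower with selinexor, and 25.9% and 28.6% with XPO1 siRNA. CCND1, the cyclin D partner of CDK4 and CDK6, went against the majority, at 34424 ± 1509 with selinexor and 21628 ± 415 with DMSO, a 1.59-fold rise (limma adjusted p = 0.000213). It was at 39790 ± 457 with XPO1 siRNA and 19896 ± 391 with control siRNA, also a rise (limma adjusted p = 2.13e-11). CDK4 fell to 4433 ± 350 with selinexor, against 8543 ± 331 with DMSO. CDK6 rose 1.26-fold with XPO1 siRNA (limma adjusted p = 2.55e-06) and did not pass with selinexor (log2 fold change -0.08, limma adjusted p = 0.641). CDK2, the main target of p21 and p27, fell 2.79-fold with selinexor and 1.44-fold with XPO1 siRNA. The cyclins CCNE2 and CCNA2 fell 5.11-fold and 4.87-fold with selinexor, and the mitotic cyclins CCNB1 and CCNB2 3.75-fold and 3.09-fold. With XPO1 siRNA, CCNE2 fell 1.20-fold (limma adjusted p = 0.00559), CCNA2 1.75-fold, CCNB1 1.49-fold and CCNB2 1.51-fold. The difference of the effects, selinexor minus siRNA, passed for 11 of 15 genes, all negative, beside 20.2% of all tested genes called lower. CCND1 was among them (-0.33), its rise being smaller with selinexor, and so was CDK6 (-0.42).

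Of 13 RB and E2F family genes, 1 rose and 9 fell with selinexor, and 2 rose and 7 fell with XPO1 siRNA. Of all tested genes, 22.9% were called higher and 26.3% lower with selinexor, and 25.9% and 28.6% with XPO1 siRNA. RB1 itself did not pass in either comparison (log2 fold change -0.36, limma adjusted p = 0.0947, and 0.02, limma adjusted p = 0.616). Its relative RBL1, which encodes p107, fell 2.93-fold with selinexor and 1.41-fold with XPO1 siRNA. E2F2 and E2F8 fell with selinexor, to 121 ± 3.25 and 62.1 ± 7.54, against 1186 ± 16.3 and 551 ± 27.8 with DMSO. E2F1 fell 3.35-fold with selinexor. TFDP2, an E2F dimerization partner, rose 1.65-fold with selinexor and 1.56-fold with XPO1 siRNA.

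Of 15 genes for the turnover of CIP/KIP proteins, 1 rose and 9 fell with selinexor, and 2 rose and 7 fell with XPO1 siRNA. The shares of all tested genes called in either direction were 49.2% and 54.5% (26.3% and 28.6% lower). DTL, the substrate receptor that brings PCNA-bound p21 to the CUL4 ligase, fell to 1013 ± 143 with selinexor, against 6715 ± 169 with DMSO, and to 4877 ± 158 with XPO1 siRNA, against 7438 ± 83.2 with control siRNA. SKP2 and its cofactor CKS1B, which direct p27 to degradation, fell 2.29-fold and 3.05-fold with selinexor and 1.20-fold and 1.73-fold with XPO1 siRNA. CDC20 and PCNA fell 2.41-fold and 2.63-fold with selinexor. RNF123, the catalytic subunit of another p27 ligase, rose with selinexor (log2 fold change 0.50, limma adjusted p = 0.0105). RNA levels say nothing of the amounts of the inhibitor proteins.

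**Figure D4:**
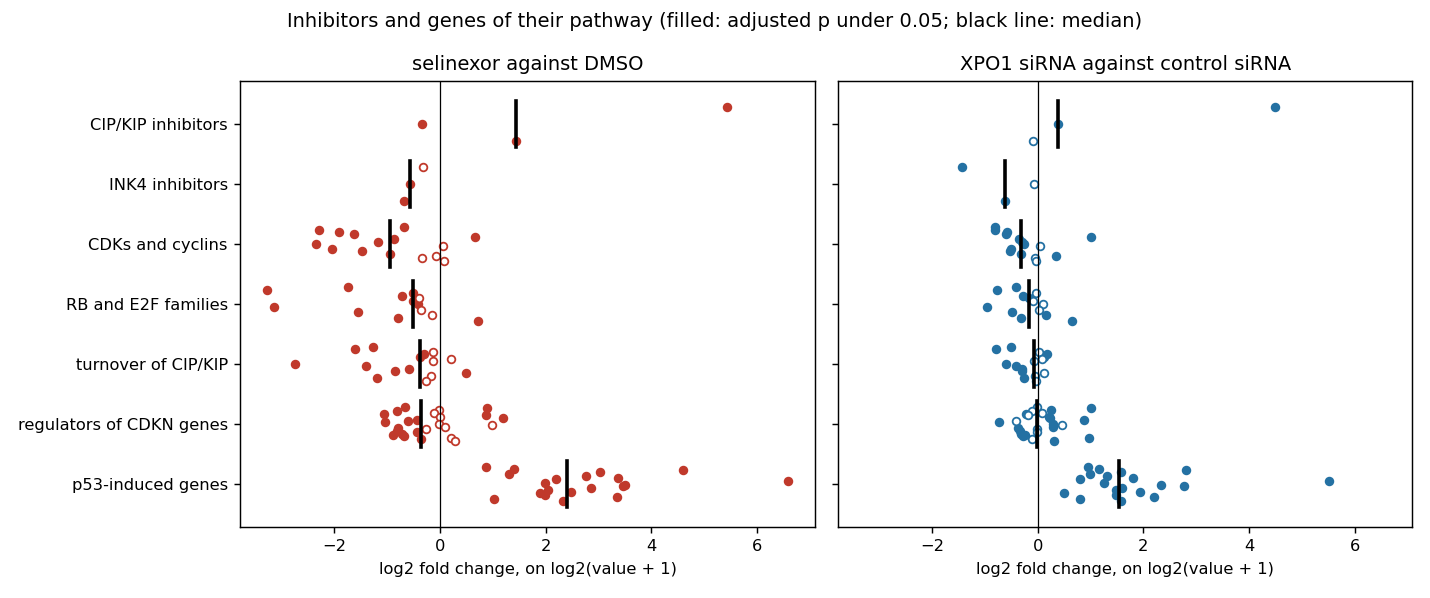
Log2 fold change (horizontal axes) of each tested gene in the inhibitor families and in the lists of kinases and cyclins, RB and E2F genes, turnover genes, regulators and p53-induced genes, for selinexor (left) and XPO1 siRNA (right). Filled points passed an adjusted p of 0.05, and the black lines are medians, at -0.95 and -0.32 for kinases and cyclins and at 2.41 and 1.53 for p53-induced genes.

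Of 25 known regulators of CDKN transcription, 3 rose and 13 fell with selinexor, and 9 rose and 7 fell with XPO1 siRNA. Over all tested genes, 22.9% were called higher and 26.3% lower with selinexor, and 25.9% and 28.6% with XPO1 siRNA. The PRC2 enzyme EZH2, known to silence the INK4 locus, fell 2.08-fold with selinexor and 1.17-fold with XPO1 siRNA. FOXO4, of the FOXO family that activates CDKN1B, rose 2.28-fold with selinexor and 1.18-fold with XPO1 siRNA. KLF6, reported as an activator of CDKN1A, fell 2.05-fold and 1.66-fold. SMAD3, which carries TGF-beta signals to CDKN2B, fell 1.76-fold and 1.26-fold. TBX2, a repressor of CDKN1A and CDKN2A, rose 1.95-fold with XPO1 siRNA (limma adjusted p = 5.08e-10) and did not pass with selinexor (log2 fold change 0.21, limma adjusted p = 0.203). ID1 fell 1.35-fold with selinexor and rose 1.82-fold with XPO1 siRNA. SP1 fell 1.63-fold and 1.25-fold.

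All 20 p53-induced genes listed beside CDKN1A rose in both comparisons, where 22.9% of all tested genes were called higher with selinexor and 25.9% with XPO1 siRNA. Their medians were 2.41 and 1.53, below the 5.43 and 4.50 of CDKN1A. PHLDA3, a brake on AKT signalling, reached 3518 ± 302 with selinexor, against 308 ± 18.5 with DMSO. The antiproliferative gene BTG2 reached 4530 ± 348, against 552 ± 28.7 with DMSO, and the kinase gene PLK2 2601 ± 371, against 234 ± 8.34. BBC3, which encodes the death effector PUMA, rose 24.4-fold with selinexor. With XPO1 siRNA, TP53INP1 rose 4.58-fold, FDXR 3.49-fold, TNFRSF10B 2.80-fold and MDM2 2.40-fold. The difference of the effects passed for 13 of the 20, all with the larger rise with selinexor, beside 11.6% of all tested genes called higher. Of 12 proliferation markers, 12 fell with selinexor (26.3% of all tested genes). With XPO1 siRNA, 10 fell (28.6% of all tested genes) and 1 rose. Their summed level ran from 57264 to 57565 with selinexor and 158828 to 164758 with DMSO, and from 116718 to 123566 with XPO1 siRNA and 133257 to 144851 with control siRNA. CENPF was the largest part of each sum, at 27849 ± 742 with selinexor and 68480 ± 2242 with DMSO. It was at 45746 ± 2044 with XPO1 siRNA and 39780 ± 4626 with control siRNA, against the direction of that sum. The part of the proliferation markers in the changes of the inhibitors was not tested.

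Of 9 other genes listed for a symbol or role like that of CDK inhibitors, 7 fell and 1 rose with selinexor. With XPO1 siRNA, 6 fell and 2 rose. The shares of all tested genes called lower were 26.3% and 28.6%, and higher 22.9% and 25.9%. CDKN3, which is a phosphatase of CDK2 despite its symbol, fell 5.06-fold and 2.28-fold. HEXIM1, which inhibits the transcriptional kinase CDK9, rose 1.92-fold and 1.71-fold.

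Beside the loci, no other gene listed in either table overlapped the span of an inhibitor. Of the listed neighbours, 8 were tested with selinexor (3 rose, 2 fell) and 9 with XPO1 siRNA (5 rose, 2 fell). The shares of all tested genes called in either direction were 49.2% and 54.5% (22.9% and 25.9% higher). MTAP, beside CDKN2A, fell to 820 ± 150 with selinexor, against 1860 ± 44.8 with DMSO, and 1.10-fold with XPO1 siRNA. In the imprinted region of CDKN1C, the transporter gene SLC22A18 rose 3.50-fold with selinexor and 1.86-fold with XPO1 siRNA. KCNQ1OT1, the noncoding RNA made there from the paternal copy and known to silence CDKN1C, rose 1.68-fold (limma adjusted p = 0.0234) and 2.28-fold (limma adjusted p = 5.58e-06). SLC44A2, near CDKN2D, rose 1.90-fold and 1.66-fold.

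The genes most like each inhibitor were found by the root mean square difference of log2 values over the 12 libraries. Each library was set against the control mean of its table. The search covered 11678 genes (11679 for CDKN2A) with a mean of 100 or more in each table, without clone, locus and small RNA names. CDKN2A itself did not reach that mean. For CDKN1A they were INPP5D (difference 0.41), MUC19 (0.56) and ACTA2 (0.62). BAMBI, KIF21A and IFT172 lay nearest to CDKN1B (0.06 each), and ZNF580, COBL and AGRN to CDKN1C (0.12, 0.16 and 0.17). For CDKN2C they were SEC23IP, LLPH and PNMA2 (0.03 to 0.04), and for CDKN2D SLC25A39, GMPPA and PSMB3 (0.07 to 0.08). For CDKN2A they were the histone gene HIST2H4B (0.41), which has near-identical copies, FGFR4 (0.46) and CEBPB (0.46). The nearest genes of CDKN1A and CDKN2A were farther off than those of the other inhibitors. The distances describe these libraries only.

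Leaving out selinexor replicate 1 changed no call among the 6 inhibitors tested. Without it the log2 fold changes with selinexor were 5.46 for CDKN1A, -0.30 for CDKN1B, 1.34 for CDKN1C, -0.60 for CDKN2A, 2.43 for CDKN2B, -0.54 for CDKN2C and -0.65 for CDKN2D.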

How the data were processed

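RNA-seq of 12 IMR5 libraries was analysed. The submitters' processing notes name STAR 2.7.3a, DESeq2, Partek and build hg19. The libraries were strand-specific per the labels' protocols, but how strand and annotation entered the counting is not stated there. The deposited signal is, from its values, gene counts that the authors scaled by a factor per library, with the 20029 genes of the selinexor table and the 19610 of the knockdown table scaled apart. The knockdown table held 3 further per-sample columns that match no sample used here, and these were not used. In it, 25 symbols turned into dates were restored by coordinates.

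Depth was estimated from the steps of low values: 61.8% to 66.7% of values from 0.3 to 60 were whole multiples within 0.02, so whole reads were not recovered and no count model was used. Reads quoted for low genes are such estimates, and their 95% intervals cover counting error only. Genes with a mean of 10 or more were fitted with limma 3.58.1 in R 4.3.3 (intensity trend, log2(value + 1), group as the only term, two-sided). The difference of effects used 4 group means over 12 libraries and 17332 genes. Steps were also run on simulated data, with the same dispersion for all genes and no outlying library. That run cannot show how the calls behave with a library like selinexor replicate 1. Exon lengths came from GENCODE 29, promoters from RefSeq, and tables and figures from Python 3.11.15.

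Named were every inhibitor, XPO1, and of each list mainly genes with the smallest p, up to 4, plus genes chosen after their values were seen, for their role. The inhibitors and lists were chosen with earlier results of these data known. Alternatives were other pseudocounts (0.5, 5), filters (none, a mean of 50) and scalings (equal totals, a 30% trimmed mean). Leaving out a replicate, blocking on its number, dropping the trend and requiring a log2 change of 1 were also tried. Chi-square per gene between replicates was 2.85 to 55.1, so no library was taken for a duplicate.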

Additional observations from a re-analysis of the deposited data

How the results depend on the processing

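Of 286 tested values of the inhibitors under the alternatives, 279 kept their direction and their side of the threshold. A further 13 values, all of CDKN2B, had no test, and 1 of them moved by more than the SD between replicates, to 1.44 with a pseudocount of 5. CDKN1B with selinexor lost its call without DMSO replicate 2 or 3. The CDKN2A effect with selinexor ran from -0.60 to 0.17 on leaving out a replicate, positive without selinexor replicate 2, and its difference of effects then passed. CDKN2C with XPO1 siRNA turned to 0.016 with equal totals, and the CDKN2D difference of effects, from -0.13 to 0.0035 on leaving out a replicate, was positive without control siRNA replicate 2. CDKN2B was called with no filter. The causes were not tested. A mean of 50 or more removed CDKN2A from the test.

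With a log2 change of at least 1 required, which by construction calls fewer, selinexor left 2742 genes and 2 inhibitors, XPO1 siRNA 851 and 2, and the difference of effects 1256 and 1. Leaving out a replicate gave 6540 to 11113 genes and 4 to 5 inhibitors with selinexor, 8428 to 9148 genes and 4 inhibitors with XPO1 siRNA, and 4359 to 7634 genes and 4 to 5 inhibitors for the difference. The 11113 and the 7634 genes were both reached without selinexor replicate 1, against 8920 and 5519 with all libraries. The shares of all genes called therefore depend on that library. With equal totals, 62.4% of calls with XPO1 siRNA were higher, in place of 47.5%, and the median of all genes moved from 0.0024 to 0.092. Same-numbered libraries did not deviate together (correlation -0.104 to 0.119). The replicate block called 8671 genes and 5 inhibitors with selinexor, 9321 and 4 with XPO1 siRNA, and 5073 and 4 for the difference. Depth limits CDKN2A and CDKN2B, with 110 reads or fewer per group.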
